A study of Mus musculus with 12 samples.

Results

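The genes described here belong to the ATF4 pathway and the unfolded protein response, and they were followed across 4 groups of mouse embryonic stem cells. They were chosen by name, with earlier results of these data known: 33 symbols were looked up in GEO's annotation of the array, and each gene was read from a probe set that carries its symbol alone. Of these, 31 were measured, among 22180 genes in all. Pycr1 had no such probe set and Pdia4 was listed only on a probe set shared with other genes, so these members have no value. Slc7a11 had 2 probe sets, of which the one with the higher mean was used. The members were kept in 3 classes: 9 regulators and other targets of ATF4, 14 genes of amino acid synthesis and transport, and 8 genes of the endoplasmic reticulum (ER), mostly chaperones.

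Total RNA was hybridised to 12 Affymetrix arrays, 3 for each group. All cells carried MERVL::tdTomato, a red fluorescent reporter under the control of retroviral MERVL sequence. One group held the unmodified reporter line (labelled ES_MERVL::tdTomato, here parental), and the others were derived from it: cells with Dppa2 and Dppa4 knocked out (Dppa2/4 KO, here KO), KO cells given wild-type Dppa2 and Dppa4 fused to GFP (Dppa2/4 WT-GFP, here KO+WT), and KO cells given forms that cannot be modified by SUMO (Dppa2/4 Mut-GFP, here KO+Mut; the labels do not name the change, and its SUMO deficiency is stated in the design text). All were grown on gelatin with LIF in medium containing 15% serum replacement and non-essential amino acids. Lipofection and sorting of GFP-positive cells are described for the add-backs alone. The labels do not say whether the KO is 1 clone, and the arrays of a group are called biological replicates without further detail, so p-values measure the spread between these samples.

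ATF4 is a transcription factor whose protein is made when the initiation factor eIF2 is phosphorylated, which happens when amino acids run short or when unfolded protein builds up in the ER. It then raises genes for making, importing and charging amino acids, together with regulators such as Ddit3 (CHOP) and Trib3. The unfolded protein response has further arms: ATF6 and spliced XBP1 raise the chaperones and degradation factors of the ER.

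The DNA elements that the arms are known for were looked for in RefSeq promoter windows around gene starts (assembly GRCm38.p6), on both strands. Promoters were found for 30 of the 33 members, with 34 starts; Cth, Slc7a3 and Slc7a5 had none. The ATF4 element was searched as TGATGNAA and occurred in 8 members, and in 3.97% of all 32851 promoters. The ER stress element, searched as CCAAT and CCACG with 9 free bases between them, occurred in 4 members and in 0.119% of promoters. Its second form, searched as ATTGG and CCACG with 1 free base between them, occurred in 1 member and in 0.0365% of promoters. The element TGACGTGG of the unfolded protein response was found in 0 members and in 0.676% of promoters. The stretches below are shown because they set the amino acid arm beside the ER arm. Each reads 5′ to 3′ along the gene's strand, all bases lie before a RefSeq start, and capitals mark the match, which is the reverse complement of the searched letters where it lies on the opposite strand. In Asns, Chac1, Nupr1 and Vldlr the capitals are the ATF4 element. Vldlr has 2 promoters in the table, and the stretch shown belongs to the downstream start, so it lies inside the gene as counted from the upstream one.
Asns, chr6:7693210-7693258, minus strand: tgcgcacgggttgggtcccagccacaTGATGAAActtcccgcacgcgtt
Chac1, chr2:119351023-119351082, plus strand: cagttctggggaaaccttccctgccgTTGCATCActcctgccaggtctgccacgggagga
Nupr1, chr7:126625547-126625606, minus strand: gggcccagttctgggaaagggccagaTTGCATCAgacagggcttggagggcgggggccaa
Vldlr, chr19:27216794-27216853, plus strand: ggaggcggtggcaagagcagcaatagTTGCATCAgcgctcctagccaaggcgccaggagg

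Herpud1, which encodes an ER membrane protein of the degradation pathway, held the ATF4 element and the second ER stress element in the same promoter, and the elements did not overlap.
Herpud1, chr8:94386317-94386387, plus strand: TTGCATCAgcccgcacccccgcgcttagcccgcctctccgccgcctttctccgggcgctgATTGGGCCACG

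The ER chaperone genes Hspa5, Dnajc3 and Calr held the first ER stress element and no ATF4 element, and Hsp90b1 held the ER stress element at 2 places.
Hspa5, chr2:34772005-34772063, plus strand: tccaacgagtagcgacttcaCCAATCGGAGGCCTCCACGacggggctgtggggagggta
Dnajc3, chr14:118937807-118937865, plus strand: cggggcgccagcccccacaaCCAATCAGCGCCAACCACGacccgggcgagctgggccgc
Calr, chr8:84847055-84847113, minus strand: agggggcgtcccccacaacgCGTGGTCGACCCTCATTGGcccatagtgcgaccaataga

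The other members with the ATF4 element were Slc7a11, Trib3 and the unmeasured Pycr1. A match is a description of letters, not a bound site.

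Of the 31 genes, the tRNA exporter gene Xpot and the ER co-chaperone gene Dnajb9 differed among the groups, and 29 did not pass without the replicate number in the fit. In a test of any difference among the 4 groups (limma moderated F test, Benjamini-Hochberg adjusted over all genes), the adjusted p was 0.0119 for Xpot and 0.0333 for Dnajb9. In all, 1.47% of the genes tested passed this test. With the replicate number added to the fit as a block, Cth (adjusted p = 0.0224) and Slc7a3 (0.0191) passed the F test too. Of all 22180 genes 869 then passed. Without the block, 0 to 2 members passed when any 1 array was left out. The call of Xpot was lost without parental replicate 1 or 2 (adjusted p = 0.0659 and 0.0732). That of Dnajb9 was lost with each array's median set to the same level (0.0869), without parental replicate 1 or 2 (0.082 and 0.0851), KO replicate 1 or 2 (0.0828 and 0.074), KO+WT replicate 2 (0.0642), or KO+Mut replicate 1, 2 or 3 (0.0627, 0.109 and 0.105).

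**Figure D1:**
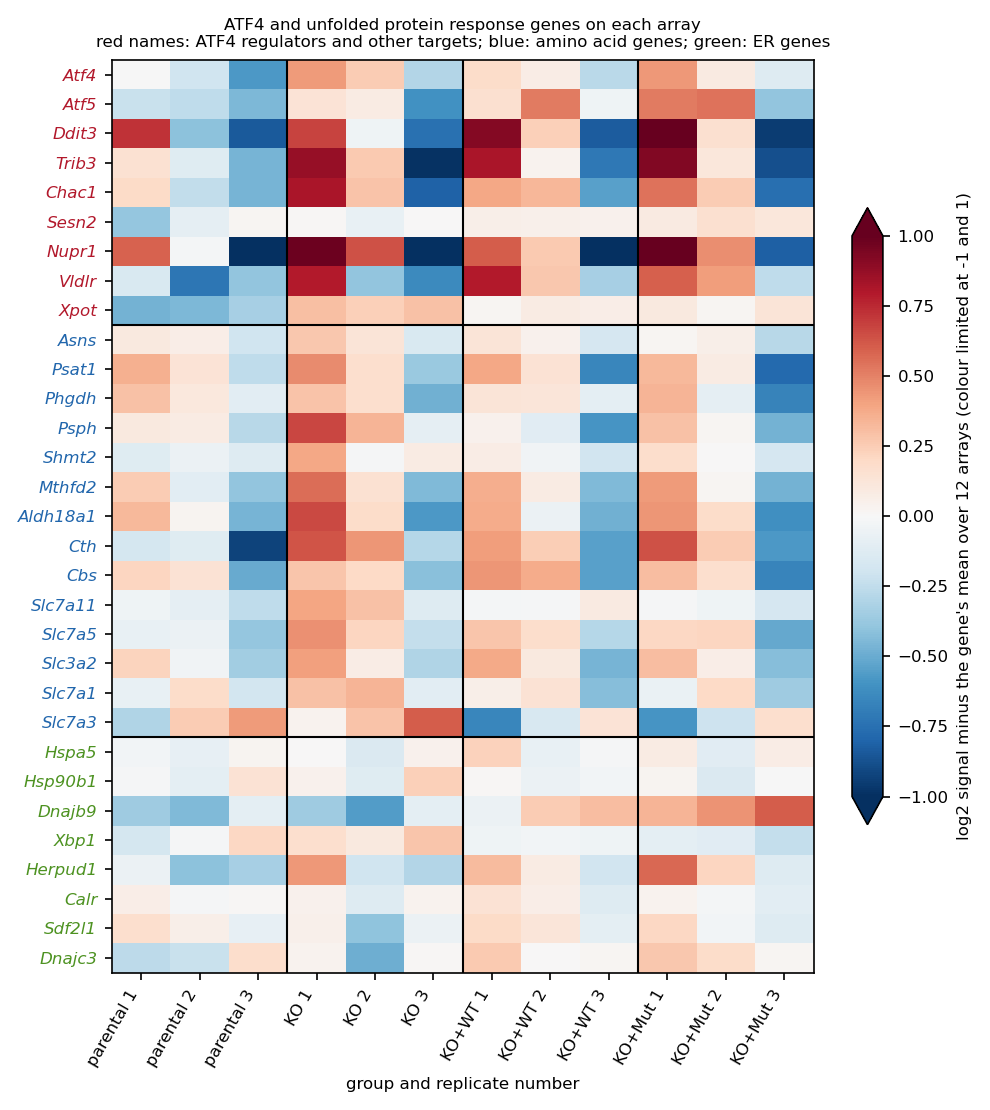
Heat map of the 31 measured genes (rows) on the 12 arrays (columns, by group and replicate number), coloured by log2 signal minus the gene's mean over all arrays. Most genes of the upper classes are red on arrays numbered 1 and blue on arrays numbered 3 in every group, the ER genes in the lowest block are paler, and Xpot and Dnajb9 change by group.

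Loss of Dppa2 and Dppa4 was the first comparison, which asked what the ATF4 and ER genes do without these proteins. Xpot, which encodes the exporter of tRNA from the nucleus, was higher in KO cells. Its log2 signal was 7.85, 7.87 and 7.98 on parental replicates 1, 2 and 3 and 8.62, 8.55 and 8.61 on the KO replicates. The groups did not overlap, and all 3 KO arrays lay above all parental arrays. The difference was 0.70 (log2, SE 0.10, n = 3 per group, limma adjusted p = 0.01115), which is 1.62-fold. Xpot was 1 of 31 members called higher and 0 were called lower, against 0.0361% and 0.203% of all genes. The call was kept with the replicate block (adjusted p = 0.0047) and lost in the fit of these 6 arrays alone (0.0974) and without KO replicates 1 and 2 (0.058 and 0.0577) or parental replicates 1 and 2 (0.0616 and 0.0774).

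Cth, the cystathionine gamma-lyase that makes cysteine, rose when arrays were compared within their replicate number. Its signal read 9.17, 9.23 and 8.42 in parental cells, against 9.98, 9.80 and 9.07 in KO cells. The groups overlapped, since KO replicate 3 lay below parental replicates 1 and 2, but each KO array was higher than the parental array of its own number, by 0.80, 0.57 and 0.64. The difference of 0.67 had an adjusted p of 0.7975 without the block (SE 0.35) and 0.0237 with it (SE 0.10). With the block 2 of 31 members were called higher and 0 lower, against 0.18% and 0.437% of all genes.

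The other amino acid genes stayed short of the threshold with and without the block, although most lay on the higher side in KO cells. Differences were above 0 for 13 of the 14 genes of this class (median 0.18, range -0.11 to 0.67), Phgdh being the exception, while the median over all genes was 0.001. Each of 10 of the 14 was higher in KO in all 3 same-numbered pairs, and 0 were lower in all 3. Over all 31 members those counts were 14 and 0, against 17.8% and 18.2% of all genes. Shmt2, the mitochondrial enzyme that splits serine into glycine and a one-carbon unit, read 9.99, 10.05 and 9.98 in parental and 10.51, 10.11 and 10.2 in KO cells, with groups that did not overlap. Its difference of 0.26 (SE 0.14, adjusted p = 0.805) did not pass. Shmt2 and Xpot were the 2 members whose groups did not overlap upward, against 6.11% of all genes, and 0 did so downward, against 6.83%.

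Slc7a5 and Slc3a2, whose products form a transporter of large neutral amino acids, differed by 0.32 and 0.11 (adjusted p = 0.92 and 0.999). Slc7a11, the cystine transporter, was read at 1.62, 1.57 and 1.41 in parental and 2.06, 1.96 and 1.53 in KO cells, 1.64, 1.65 and 1.76 with wild-type and 1.65, 1.62 and 1.49 with mutant add-back. These values lie below the lower quartile of every array (2.36 to 2.47), and the deposited values carry no detection calls. Its other probe set, also below the quartile, read 1.480, 1.726 and 1.734 in parental, 1.754, 1.655 and 1.239 in KO, and 1.686, 1.818 and 1.943 in KO+WT cells. There KO replicates 2 and 3 lay below the parental arrays of their number. The place of Slc7a11 in the counts above thus rests on the probe set used. Asns, the asparagine synthetase gene whose promoter is printed above, read 10.13, 10.10 and 9.83 in parental and 10.30, 10.16 and 9.87 in KO cells, a difference of 0.10 (SE 0.15).

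All 9 regulators and other ATF4 targets had differences above 0 in KO cells (median 0.27, range 0.13 to 0.70), of which that of Xpot passed. Of the 9, 2 (Atf4 and Xpot) rose in all 3 same-numbered pairs and 0 fell in all 3, against 17.8% and 18.2% of all genes. The class mean for numbers 1, 2 and 3 was 6.914, 6.588 and 6.340 in parental cells. KO cells had class means of 7.425, 7.007 and 6.310, so the mean did not rise at number 3. Atf4 itself read 8.28, 8.09 and 7.71 in parental and 8.72, 8.55 and 8.0 in KO cells. It was higher in KO within each replicate number (by 0.435, 0.455 and 0.285), but the groups overlapped and the difference of 0.39 (SE 0.22, adjusted p = 0.827) did not pass, nor did it with the block (0.107). The array reads transcript, whereas ATF4 is controlled largely at translation, so these values do not measure ATF4 protein. Against parental cells, all 9 regulators and other ATF4 targets were also above 0 in KO+WT (median 0.255) and in KO+Mut (median 0.394). Against KO, 4 of 9 were above 0 in KO+WT (median -0.003) and 7 of 9 in KO+Mut (median 0.142). Comparisons with parental cells share the 3 parental arrays, so their directions are not independent of one another. Atf4 averaged 8.03 in parental, 8.42 in KO, 8.28 in KO+WT and 8.42 in KO+Mut cells. The 8 ER genes were centred on 0 in KO against parental cells (median -0.02, 3 above 0), from -0.19 for Sdf2l1 to 0.25 for Herpud1.

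**Figure D2:**
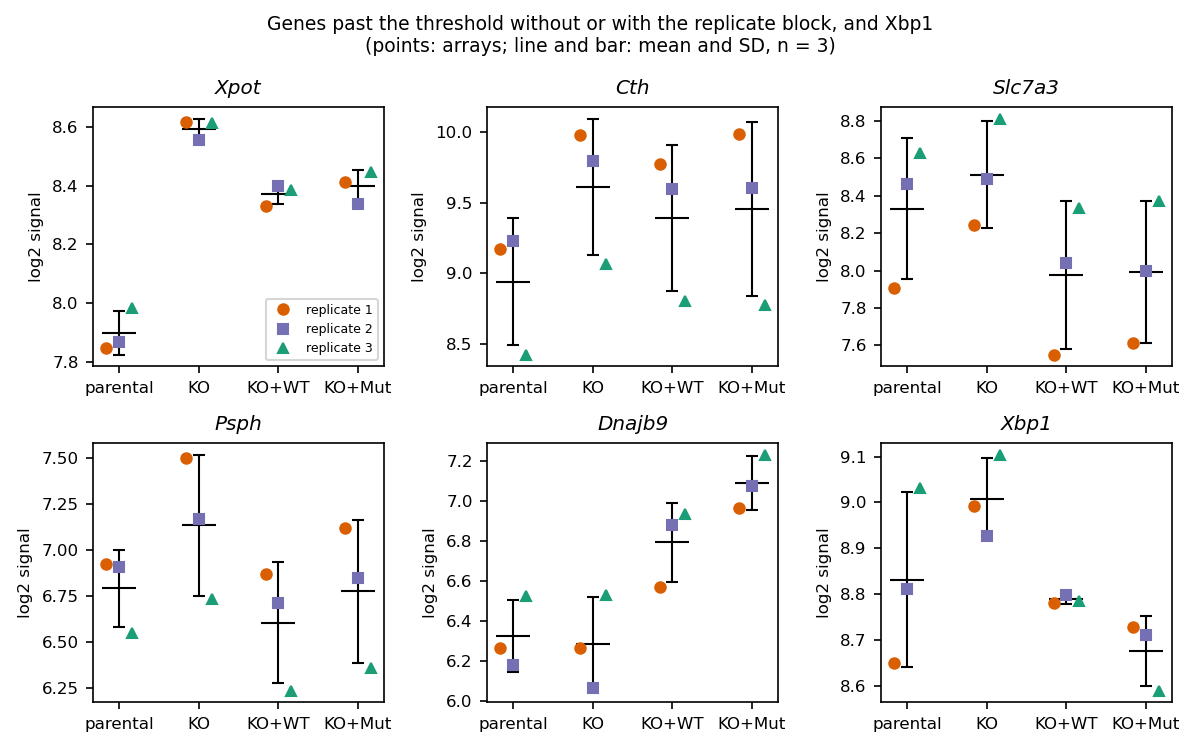
Log2 signal (vertical axes) by group for the 5 genes past the threshold in some comparison without or with the replicate block, and for Xbp1; points are arrays, marked by replicate number, and lines with bars are means with SD (n = 3). Xpot rises from parental to KO, Dnajb9 is highest with the mutant add-back, and Cth, Psph and Slc7a3 show larger steps between replicate numbers than between groups.

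Adding back wild-type Dppa2 and Dppa4 left every member short of the threshold in the fit without the replicate block. With the block Dnajb9 was called higher (limma adjusted p = 0.044) and Psph (0.0281) and Slc7a3 (0.0168) lower. Of all 22180 genes 353 were then higher and 141 lower. The replicate numbers were not taken to pair these arrays, so those calls rest on a shared number only. By limma without the block 0 of 31 were called higher and 0 lower, against 0.73% and 0.0992% of all genes. An unadjusted p under 0.05 was reached by 2662 of all 22180 genes and by 3 of the 31 members. These were Dnajb9 (0.51, SE 0.15, adjusted p = 0.186), Xpot (-0.22, SE 0.10, adjusted p = 0.399) and Psph (-0.53, SE 0.24, adjusted p = 0.399), the phosphatase that completes serine synthesis. Dnajb9 and Sesn2 lay above and Xpot and Xbp1 below KO without overlap, 2 genes in each direction, against 8.61% and 7.43% of all genes.

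The SUMO-deficient add-back raised Dnajb9, the gene of an ER co-chaperone of BiP that is a known target of XBP1. Parental arrays read 6.27, 6.18 and 6.53, and KO arrays 6.26, 6.07 and 6.53. With wild-type add-back the values were 6.57, 6.88 and 6.94, and with mutant add-back 6.96, 7.07 and 7.23. Both add-backs lay wholly above KO, with KO+Mut highest. Against KO the mutant add-back differed by 0.80 (log2, SE 0.15, n = 3 per group, limma adjusted p = 0.0208), which is 1.74-fold. Without the replicate block Dnajb9 was 1 of 31 members called higher and 0 were called lower, against 1.12% and 0.153% of all genes. Without overlap, Dnajb9 and Sesn2 lay above KO and Xpot and Xbp1 below, against 9.24% and 8.77% of all genes. The call was lost with array medians set equal (adjusted p = 0.0571), in the fit of these 6 arrays (0.0559), and without KO replicates 1 and 2 (0.076 and 0.0997) or KO+Mut replicates 2 and 3 (0.0887 and 0.081).

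The other ER genes did not follow Dnajb9 past the threshold. The differences of the 8 genes from KO ran from -0.33 to 0.80 with mutant add-back (median 0.10) and from -0.22 to 0.51 with wild-type (median 0.08). Xbp1, which encodes the transcription factor of the IRE1 arm, read 8.65, 8.81 and 9.03 on parental arrays and 8.99, 8.93 and 9.10 on KO arrays. Wild-type add-back gave 8.78, 8.80 and 8.78, and mutant add-back 8.73, 8.71 and 8.59. Its add-back values lay below all KO values, opposite to Dnajb9, but the difference of -0.33 with the mutant (SE 0.12, adjusted p = 0.251) did not pass. A single value for the gene does not separate spliced from unspliced Xbp1 transcript. Hspa5 (BiP), the main ER chaperone, lay 0.08 (wild-type) and 0.05 (mutant) above KO in the add-backs, and Hsp90b1 and Calr by -0.08 and 0.04 with wild-type and -0.10 and -0.01 with mutant. Dnajc3, the co-chaperone that also restrains the eIF2 kinases, differed by 0.24 and 0.31 (adjusted p = 0.603 and 0.49). It read 6.70, 6.74 and 7.13 on parental and 6.99, 6.47 and 6.96 on KO arrays, then 7.22, 6.96 and 6.98 with wild-type and 7.23, 7.14 and 6.97 with mutant add-back, and all 4 groups overlapped. Herpud1 read 6.85, 6.49 and 6.57 on parental and 7.34, 6.70 and 6.61 on KO arrays, then 7.22, 6.99 and 6.71 with wild-type and 7.48, 7.12 and 6.77 with mutant add-back, also with overlap.

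The amino acid genes lay mostly below KO in the add-back cells, and 0 of 14 passed in the fit without the replicate number. Differences were below 0 for 12 of 14 genes with wild-type (median -0.14) and for 14 of 14 with mutant add-back (median -0.15), while the medians over all genes were -0.001 and -0.007. Both comparisons share the 3 KO arrays, and so does that of KO with parental cells, so these directions are not independent of one another. Slc7a3, a transporter of cationic amino acids, read 7.91, 8.46 and 8.63 on parental and 8.24, 8.49 and 8.81 on KO arrays. It read 7.55, 8.04 and 8.34 with wild-type and 7.61, 8.0 and 8.37 with mutant add-back. The add-back arrays overlapped those of KO, and the differences of -0.54 and -0.52 (SE 0.25) had adjusted p of 0.424 and 0.425. Within the replicate numbers Slc7a3 was lower throughout, by differences of -0.691, -0.447 and -0.474 with wild-type and -0.630, -0.487 and -0.440 with mutant add-back. Psph read 6.92, 6.91 and 6.55 in parental cells, 7.50, 7.17 and 6.73 in KO, 6.87, 6.71 and 6.24 in KO+WT, then 7.12, 6.85 and 6.36 in KO+Mut, again with overlap. Its differences from KO within the numbers were -0.628, -0.456 and -0.497 with wild-type and -0.376, -0.322 and -0.377 with mutant add-back.

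**Figure D3:**
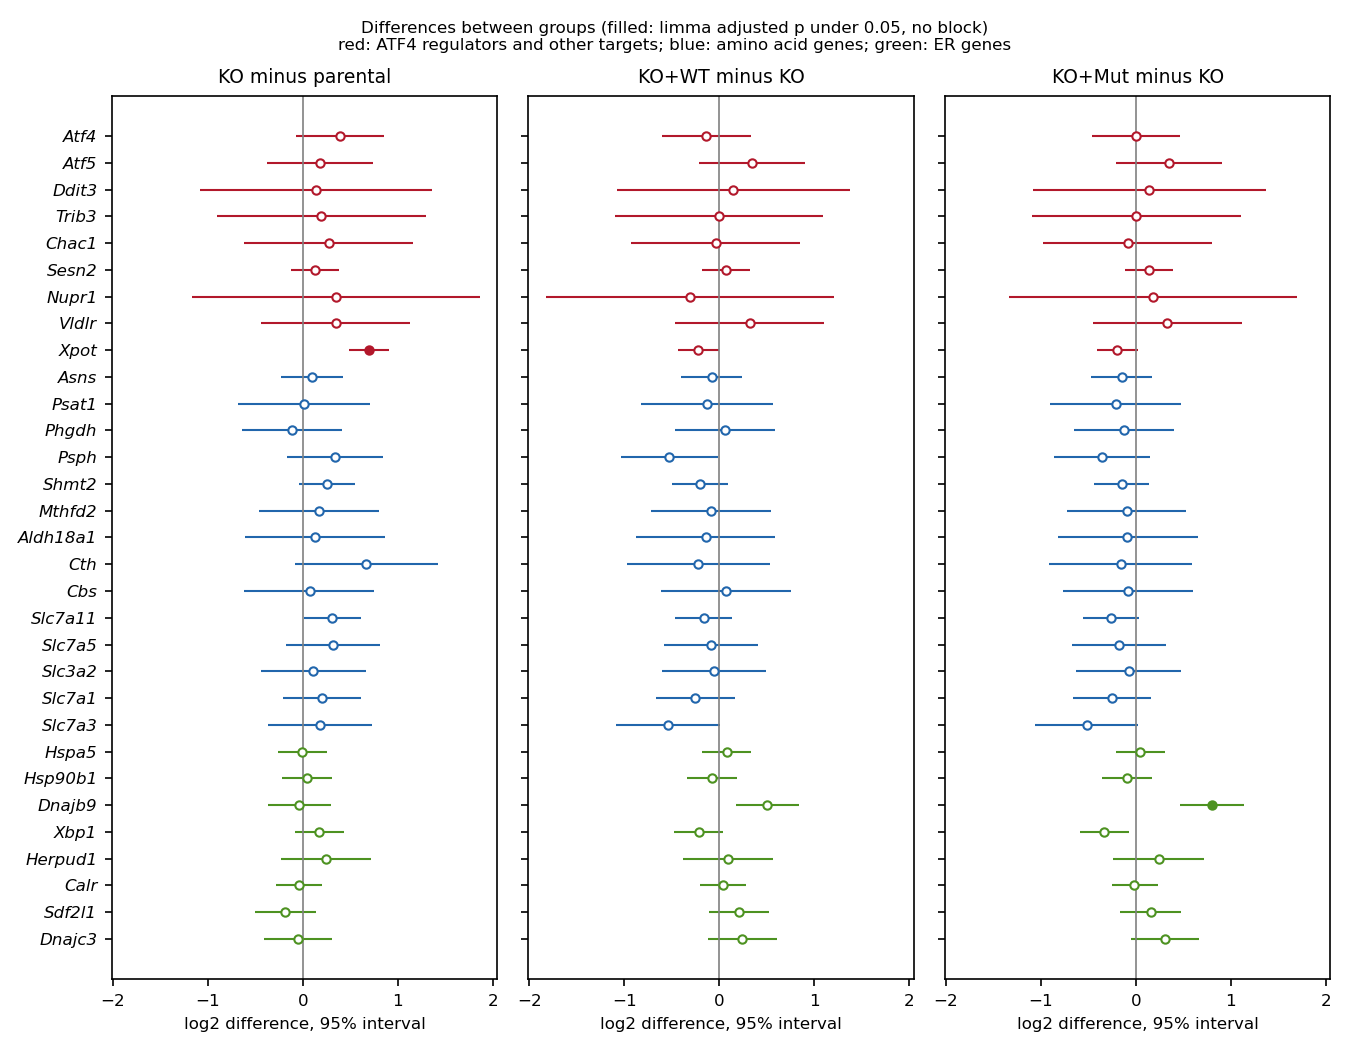
Log2 differences with 95% limma intervals (horizontal axes) for the 31 genes in 3 comparisons, filled where the adjusted p was under 0.05 without the block. Xpot in KO against parental cells and Dnajb9 in KO+Mut against KO are the filled points, and the widest intervals belong to Nupr1, Ddit3 and Trib3.

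The 2 add-backs were matched for transfection and sorting, and no member differed between them past the threshold. By limma 0 of 31 were called in either direction, and 0 of 22180 genes were (0%). Of the members 0 had an unadjusted p under 0.05, and 2 did with the replicate block, with 0 past its adjusted threshold. Of all 22180 genes 675 had such a p without the block and 1214 with it. The largest differences, KO+Mut minus KO+WT, were 0.491 for Nupr1 and 0.295 for Dnajb9. Their 95% intervals without the block were -1.03 to 2.01 and -0.04 to 0.63. Within the replicate numbers Nupr1 differed by 0.646, 0.200 and 0.627, and its SE was 0.702 without the block and 0.133 with it. Half-widths of the members' intervals ran from 0.215 to 1.52 in the fit without the block. They hold the spread between replicate numbers and are not adjusted for the number of genes. They are therefore not limits of detection, and differences of this size could have been missed. Dnajb9 and Sesn2 lay higher and Xbp1 lower in KO+Mut without overlap, against 3.07% and 3.62% of all genes.

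Against parental cells Xpot stayed higher in the add-backs. Its signal was 8.33, 8.4 and 8.38 in KO+WT, then 8.41, 8.34 and 8.45 in KO+Mut, between the parental and the KO values and without overlap with either. With mutant add-back Xpot was 0.50 higher than parental (SE 0.10, limma adjusted p = 0.0306) and Dnajb9 0.76 higher (SE 0.15, adjusted p = 0.0331). These were 2 of 31 called higher, with 0 lower, against 0.654% and 0.338% of all genes. Cth differed by 0.515 (adjusted p = 0.641) and passed with the block (0.0291), which made 3 of 31 higher and 0 lower, against 1.59% and 1.54%. Sesn2, Xpot and Dnajb9 lay above parental cells without overlap and 0 members below, against 8.63% and 9.38% of all genes. The Xpot call was lost with array medians set equal (adjusted p = 0.0768), in the fit of 6 arrays (0.113) and without any 1 of the 6 arrays (0.0726 to 0.136), and the Dnajb9 call with medians set equal (0.0675) and without parental replicates 1 and 2 (0.122 and 0.153) or KO+Mut replicates 1, 2 and 3 (0.0588, 0.128 and 0.126).

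With wild-type add-back 0 of 31 passed in either direction against parental cells, where 0.32% of all genes were higher and 0.23% lower by limma. An unadjusted p under 0.05 was reached by 2 members and by 2378 of all 22180 genes. Xpot was 0.47 higher (SE 0.10, adjusted p = 0.0622). It passed with the replicate block (0.0215), which made 1 of 31 higher and 0 lower, against 1.07% and 0.996%. Atf5, Sesn2, Xpot, Slc7a11 and Dnajb9 lay above parental cells without overlap and 0 members below, against 8.05% and 7.8% of all genes. Slc7a11 did so on the dim probe set used, and its other probe set overlapped. Sesn2, which encodes a leucine-sensing inhibitor of mTORC1, was 8.24, 8.53 and 8.64 in parental, 8.64, 8.55 and 8.63 in KO, 8.68, 8.67 and 8.67 in KO+WT, then 8.71, 8.78 and 8.74 in KO+Mut. Both add-backs lay above all parental and KO arrays, by 0.205 and 0.275 on average over parental (adjusted p = 0.577 and 0.384). Atf5, a bZIP factor related to ATF4, read 6.22, 6.19 and 6.0 in parental cells, 6.58, 6.53 and 5.84 in KO, 6.61, 6.97 and 6.4 in KO+WT, then 6.97, 6.99 and 6.05 in KO+Mut. Its wild-type add-back values lay above all parental ones, and the difference of 0.52 had an adjusted p of 0.51. Vldlr, a receptor for lipoproteins, read 4.10, 3.53 and 3.86 in parental cells, 5.05, 3.86 and 3.61 in KO, 5.04, 4.52 and 3.92 in KO+WT, then 4.85, 4.67 and 4.0 in KO+Mut, with overlap throughout.

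For most amino acid and ATF4 genes the replicate number, not the group, carried the spread. Ddit3, which encodes the stress factor CHOP, was 6.97, 5.84 and 5.41 on parental replicates 1, 2 and 3 and 6.93, 6.21 and 5.51 in KO. It was 7.17, 6.49 and 5.42 in KO+WT, then 7.36, 6.41 and 5.31 in KO+Mut. The array numbered 1 was highest and the array numbered 3 lowest in all 4 groups. Nupr1, a small stress-induced chromatin protein, read 7.77, 7.16 and 5.93 in parental cells, 8.16, 7.82 and 5.92 in KO, 7.79, 7.45 and 5.74 in KO+WT, then 8.44, 7.65 and 6.37 in KO+Mut. Here too number 3 lay far below the others. These genes, and the test that follows, were chosen after the values had been seen.

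When the replicate number was tested with the group held constant (limma moderated F test, adjusted over all genes), 20 of 31 members passed, against 12.8% of all genes. Arrays numbered 1 lay above those numbered 3 in 19 of them, against 6.8% of all genes, and below in 1 (Slc7a3), against 6.01%. The difference between numbers 1 and 3 was 2.05 for Nupr1 (log2, SE 0.115, 4 arrays each, adjusted p = 0.00016), 1.70 for Ddit3 (SE 0.125), 1.45 for the pseudokinase gene Trib3 (SE 0.18), 1.13 for Chac1 (SE 0.155), which encodes an enzyme that breaks down glutathione, and 0.58 for Atf4 (SE 0.08). By class, 7 of 9 regulators and other ATF4 targets passed (not Sesn2 and Xpot), 12 of 14 amino acid genes (not Shmt2 and Slc7a11) and 1 of 8 ER genes, Herpud1 (0.55, SE 0.10, adjusted p = 0.0146). The count was 15 to 20 without any 1 array (15 without KO replicate 1). Of the 20, Atf5 passed in 3 of those 12 fits, Asns in 5, Vldlr in 6, Phgdh in 7, Herpud1 in 10 and the other 15 in all 12; Herpud1 was at 0.0534 without KO replicate 1.

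Among amino acid genes the differences between numbers 1 and 3 reached 0.98 for Aldh18a1, the first enzyme of proline synthesis, 0.96 for Cth, 0.90 for Psat1, a serine-pathway aminotransferase, 0.84 for the one-carbon enzyme gene Mthfd2 and 0.84 for Cbs, which makes cystathionine. Slc7a3 went the other way, by -0.71 (SE 0.08, adjusted p = 0.00228), and was lowest on the array numbered 1 in every group. The array numbered 3 was the lowest in all 4 groups for 17 of 31 members, against 9.37% of all genes, for 11 of 14 amino acid genes and for 0 of 8 ER genes. The array numbered 1 was the highest in all 4 groups for 16 members, against 6.51%, and 12 members met both conditions, against 2.96%. Replicate number accounted for a median of 74.6% of the variance of the amino acid genes over the 12 arrays and group for 14.0%. Over all genes these medians were 23.0% and 29.2%. For Xpot group accounted for 97.3%, and for Dnajb9 82.5%.

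**Figure D4:**
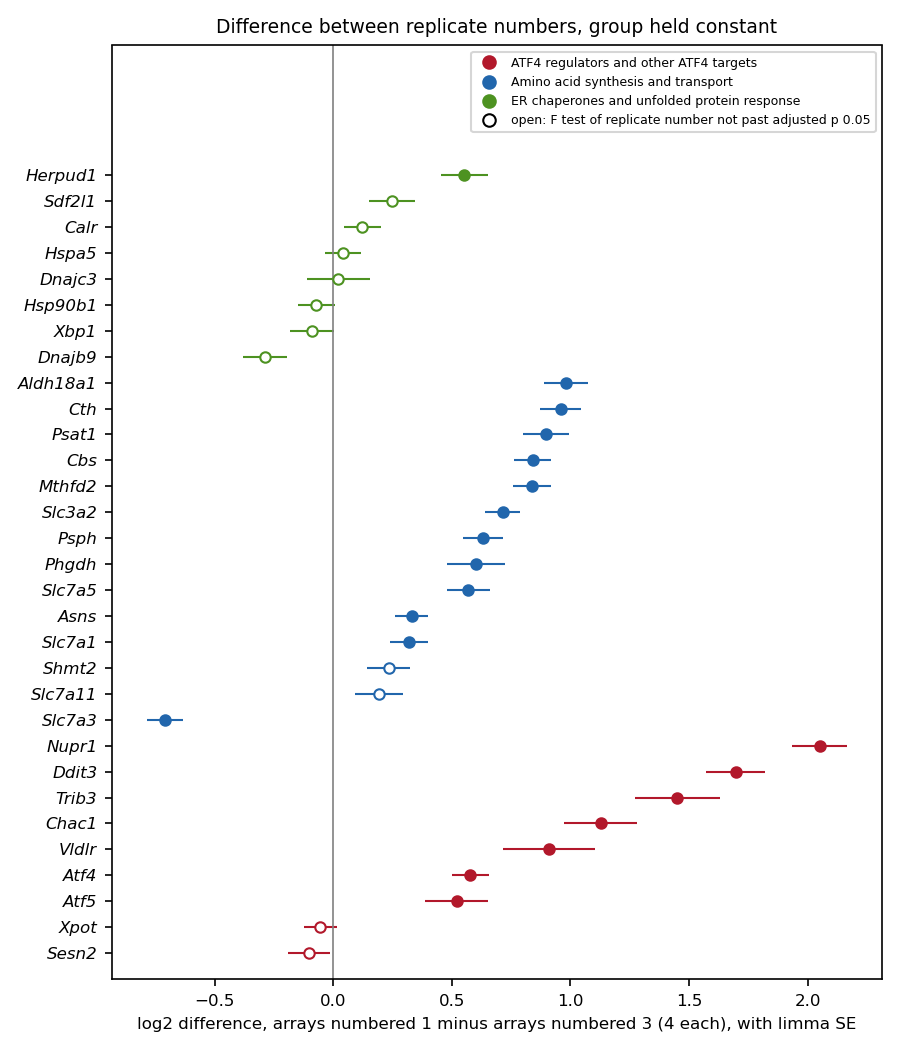
Log2 difference between the 4 arrays numbered 1 and the 4 numbered 3 (horizontal axis, with limma SE) for each gene, coloured by class and filled where the test of replicate number passed. Points of the regulators and the amino acid genes lie mostly right of 0, up to 2.05 for Nupr1, Slc7a3 lies at -0.71, and of the ER genes Herpud1 alone is filled.

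The promoter letters printed above can be set beside these values. Of the 7 measured members with the ATF4 element 6 passed the test of replicate number (Asns, Chac1, Herpud1, Nupr1, Trib3 and Vldlr), and Slc7a11 did not. Of the 4 with the first ER stress element and no ATF4 element (Hspa5, Hsp90b1, Calr and Dnajc3) 0 passed. Over all tested genes with a promoter, 10.3% of the 29 with this ER stress element and 13.2% of the 16961 without it passed. Herpud1 held an ATF4 and an ER stress element. Of the 21 measured members with a promoter and no ATF4 element 11 passed, and over all tested genes with a promoter 11.4% of the 666 with the element and 13.3% of the 16324 without it passed. Across the whole array the share that passed was thus not higher with the ATF4 element.

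Other genes of the pathways were followed by lists of function, beside the 12.8% of all genes that passed the test of replicate number. Of 11 measured aminoacyl-tRNA synthetase genes, which charge tRNA and are known ATF4 targets, 7 passed it, all with number 1 above number 3 (median of the list 0.35): Cars (0.76, SE 0.09), Sars, Lars, Gars, Mars1, Nars and Yars. Of 17 other ATF4 targets 8 passed. Number 1 was above number 3 for the amino acid transporter gene Slc1a4 (1.73), the growth factor gene Vegfa (1.36), Jdp2 (1.33), Atf3, Gpt2, Slc1a5 and Stc2, and below it for the transporter gene Slc38a2 (-0.41). Of 16 other ER folding genes 1 passed (Ero1b, 0.05 between numbers 1 and 3), and of 15 degradation and secretion genes 1 (Sel1l, 0.37). Of 8 mitochondrial chaperone and protease genes 2 passed, with number 1 below number 3 (Hspd1, -0.44, and Hspe1, -0.36). Of 13 sensors and eIF2 regulators 3 passed, Gcn1 (0.49) and Atf6b (0.27) with number 1 above and the kinase gene Eif2ak1 (-0.40) with number 1 below. Between groups, 0 synthetases passed in any of the 6 comparisons without or with the block. They lay above 0 in 10 of 11 cases for KO against parental (median 0.15) and in 0 and 1 of 11 for KO+WT and KO+Mut against KO. Of all genes 50.2%, 49.9% and 48.7% did so. The 3 comparisons share the KO arrays, so these directions are not independent of one another.

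Of these pathway lists 1 gene passed between groups without the block: Mbtps2, the protease that releases ATF6 from the membrane, fell by 0.64 with mutant add-back against KO (SE 0.14, limma adjusted p = 0.0456). The call was lost without any 1 of the 6 arrays (adjusted p = 0.1 to 0.153), in the fit of those arrays alone (0.0622) and after repeated quantile normalization (0.0736). With wild-type add-back the difference was -0.44. Ppp1r15a (GADD34), which returns eIF2 to its active form, differed from KO by 0.22 and 0.30 with wild-type and mutant add-back, and the eIF2 kinase gene Eif2ak4 (GCN2) by -0.41 and -0.38, none past the threshold. Against parental cells, with the replicate block, Ppp1r15a was 0.56 higher (adjusted p = 0.104 without the block and 0.0223 with it) and Mbtps2 differed by -0.54 (0.11 and 0.0199) in KO+Mut. Fkbp11, a prolyl isomerase gene of the ER folding list, differed from parental cells by -0.52 in KO+WT (0.137 and 0.04) and by -0.55 in KO+Mut (0.0899 and 0.0273).

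**Figure D5:**
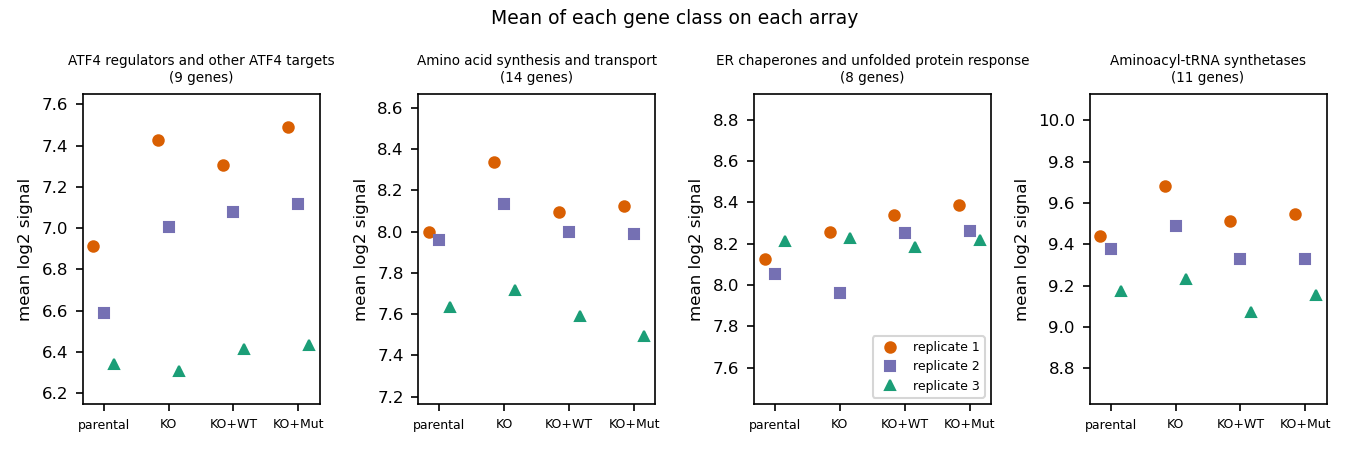
Mean log2 signal of the genes of each class and of the aminoacyl-tRNA synthetases (vertical axes, equal spans) on each array, by group, with replicate numbers marked. In 3 of the panels the array numbered 3 is the lowest in every group, and in the panel of ER genes it is the lowest in the add-backs only.

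The cells were checked against cell type markers. All 10 pluripotency markers were measured, Nanog averaging 10.49 in parental and 10.54 in KO cells, and 0 passed in any comparison without the block. With it, Sox2 (-0.40, adjusted p = 0.0344) and Fgf4 (-0.53, 0.021) were lower in KO+Mut than parental cells. Both were also lower with the block in KO+Mut than KO cells (-0.372, 0.04606, and -0.441, 0.04235). The mean of 8 primitive endoderm markers was 6.27 to 6.96 on parental arrays, 5.63 to 6.10 in KO, 5.84 to 6.02 in KO+WT, then 5.67 to 5.89 in KO+Mut, with 0 of 8 above 0 in KO against parental cells. In that comparison 0 of 8 were called without the block and 2 were called lower with it, Pdgfra (-1.24, adjusted p = 0.00091) and Lama1 (-0.73, 0.0227). Against parental cells Lama1 was called lower without the block in KO+WT (-0.94, 0.0477) and in KO+Mut (-0.95, 0.0301), and with the block Lama1, Pdgfra and Dab2 were, 3 of 8 in each. The 8 fibroblast markers averaged 3.65 to 3.94 on all arrays, and the 8 trophectoderm markers 4.47 to 5.01, of which Tfap2c was called lower in KO+Mut than parental cells with the block (-0.71, adjusted p = 0.0202). Against KO, the block also called Pdgfra (-0.520, 0.03393) and Tfap2c (-0.559, 0.0493) lower and Thy1 (0.519, 0.02791) higher in KO+Mut. It called Hand1 higher in KO+WT (0.940, 0.04239). The replicate numbers were not taken to pair the add-backs with KO, so the calls against KO rest on a shared number only. The 7 markers of 2-cell-like cells averaged 4.57 to 5.69 on parental arrays, 2.88 to 3.05 in KO, 8.18 to 10.14 in KO+WT, then 9.41 to 10.58 in KO+Mut, and all 7 rose with each add-back, while 3 of 7 were called lower in KO than parental cells. Dnajb9 and Sesn2 also lay higher in both add-backs than in KO cells, without overlap. Of all genes, 8.61% did so in KO+WT and 9.24% in KO+Mut. In KO against parental cells the markers of 2-cell-like cells had a median difference of -1.81, with 0 of 7 above 0. Dnajb9 differed by -0.04 there (SE 0.15). By replicate number, 2 of 7 markers of 2-cell-like cells, 3 of 8 of primitive endoderm and 1 of 10 of pluripotency passed with number 1 below number 3, and 3 of 8 of trophectoderm and 1 of 8 of fibroblasts with number 1 above. In bulk samples a change in the share of cells of a type and a change in transcript per cell cannot be told apart, and the part of these markers in the results above was not tested. The targeted gene Dppa2 fell by 1.29 in KO against parental cells (limma adjusted p = 0.0259), Dppa4 differed by -0.84 (0.102), and each add-back raised both over KO by 2.60 to 2.92; where the probe sets lie relative to the deletions is not known here.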

How the data were processed

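Biotin-labelled cDNA was made from 100 ng of total RNA with the Affymetrix WT Plus kit, per the labels' protocols. The authors deposited log2 signals, 1 per probe set and array; the Transcriptome Analysis Console is named in the submitters' processing notes. Its version, the summarization, the background correction and the genome build: not given in the sources used here. The log2 scale was inferred from the range of the deposited values. Of 41345 probe sets, 23521 carry 1 symbol, 1814 several and 16010 none; a gene with several was read from its brightest on average, giving 22180 genes, and the identifiers of 21994 matched RefSeq. Array medians lay between 3.73 and 3.88, and the number of arrays limits the precision.

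Groups were compared with limma 3.58.1 in R 4.3.3 (lmFit, eBayes, 1 mean per group, all 12 arrays), two-sided, adjusted by Benjamini-Hochberg over all genes at a threshold of 0.05, and tested on simulated data. The members and lists were chosen with earlier results of these data known. Values on every array are printed for members past the threshold without or with the replicate block and for the 4 of smallest F p in each class, and for others where stated; of each further pathway list, genes past the threshold between groups are named, and those past the replicate-number test. The labels number the replicates 1 to 3 in each group. After subtracting group means, arrays sharing a number correlated at more than 0.1 throughout for KO against parental (0.356, 0.153 and 0.417), KO+Mut against KO+WT (0.401, 0.211 and 0.469), KO+WT against parental (0.331, 0.150 and 0.313) and KO+Mut against parental (0.327, 0.130 and 0.364), so these were taken as paired, but not for either add-back against KO. A limma test of the replicate number, with group in the model, was added after seeing the values. Alternatives were the replicate block, median centring, repeated quantile normalization, dropping the dimmest 25% of genes, eBayes with its trend and robust options, separate fits of each 6 arrays, averaging a gene's probe sets, and leaving out each array. Figures were made with matplotlib 3.10.9.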

Additional observations from a re-analysis of the deposited data

How the results depend on the processing

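Counts of members past the threshold were small and moved with the settings. With the replicate number as a block, 2 members were higher in KO than parental cells (Xpot and Cth), 1 was higher (Dnajb9, adjusted p = 0.044) and 2 were lower (Psph, 0.0281, and Slc7a3, 0.0168) in KO+WT than KO, 1 was lower in KO+Mut than KO (Slc7a3, 0.0161), 1 was higher in KO+WT than parental, and 4 varied among the groups (Cth, 0.0224, and Slc7a3, 0.0191, beside Xpot and Dnajb9); the numbers were not taken to pair the arrays of either add-back with KO (correlations of 0.307, 0.064 and 0.293 for KO+WT, and 0.306, 0.082 and 0.362 for KO+Mut), so those calls rest on a shared number only. With the block 353 and 141 of all 22180 genes were higher and lower in KO+WT than KO (162 and 22 without it), 480 and 236 in KO+Mut than KO (248 and 34), 40 and 97 in KO than parental (8 and 45), 237 and 221 in KO+WT than parental (71 and 51), 353 and 342 in KO+Mut than parental (145 and 75), and 869 varied among the groups (326). The block changed no other call of a member except Cth in KO+Mut against parental cells. Centring each array on its median left 0 higher in KO+Mut than KO, 0 higher in KO+Mut than parental and 1 varying among the groups. In fits of the 6 arrays compared, 0 were higher in KO than parental, 0 in KO+Mut than KO and 1 in KO+Mut than parental. Repeated quantile normalization, leaving out low-signal genes, and eBayes with trend and robust variances each made 1 higher in KO+WT than parental (Xpot, adjusted p = 0.0351, 0.0382 and 0.0165). Without any 1 array, 0 to 1 were higher in KO than parental, 0 to 1 in KO+Mut than KO, 0 to 1 in KO+Mut than parental, 0 in the other comparisons, and 0 to 2 varied among the groups. No difference of a called member changed sign in the settings run. The replicate-number test was chosen after seeing the data; it passed 20 members after median centring and after quantile normalization, 15 to 20 without any 1 array, and 1443 to 2297 of all genes in place of 2840. The cause of these changes was not tested. No detection calls were used, so values below the lower quartile of an array (Slc7a11) have no check against background.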
